A study of Homo sapiens with 20 samples.

Results

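The CDKN2A window is a stretch of chromosome 9, from 21700000 to 22500000 in GRCh37, that holds the start sites of MTAP, CDKN2A, CDKN2B and DMRTA1 and a broad domain of H3K4me3 between the last pair of genes. H3K4me3, histone H3 with 3 methyl groups on lysine 4, is a mark found at the promoters of active genes, and its sites were mapped by immunoprecipitating chromatin and sequencing the DNA. The window was set by position, with start sites at 21802542 for MTAP, 21975132 and 21994490 for the p16INK4a and p14ARF transcripts of CDKN2A, 22009312 for CDKN2B and 22446840 for DMRTA1. The broad domain, at 22209133 to 22229024, was chosen by measured values, because colonies have no peak in it, so its absence there is described and not tested. The 10 peak lists place 229 of their 306884 peaks in the window. Merging peaks that lie within 1000 bp of each other over all libraries gives 16 regions in the window, of 31428 on the autosomes and X.

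The cells are WM164, a human melanoma line that carries mutant BRAF, and dabrafenib is an inhibitor of that kinase. Resistant cells were kept in 50 nM dabrafenib for more than 90 days, and colonies for 45 days in the same dose, with the drug renewed every 3 days. NRAS Q61K cells overexpress a RAS oncoprotein, which acts above BRAF in the same pathway, and GFP cells overexpress the fluorescent protein in its place. No dabrafenib or DMSO exposure is recorded for NRAS Q61K or GFP cells. Drug-exposed below means resistant cells and colonies. Parental cells were given DMSO for 3 days. Each group has 2 libraries, and the labels do not say that they came from separate cultures, so a p-value measures only the spread between these libraries, which may be technical. All groups derive from 1 cell line, the promoter driving the transgenes is not stated in the labels, and melanocyte markers were not checked because their start sites could not be placed on this build. Across the libraries, 19111 to 45376 peaks lie on the autosomes and X, with the fewest in resistant cells and the most in GFP cells.

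CDKN2A encodes a pair of unrelated tumour suppressors from separate first exons: p16INK4a, which inhibits the cyclin D-dependent kinases CDK4 and CDK6 and so keeps the retinoblastoma protein active, and p14ARF, which restrains MDM2 and so stabilises p53. CDKN2B lies next to it and encodes p15INK4b, another inhibitor of CDK4 and CDK6. MTAP encodes the methylthioadenosine phosphorylase of the methionine salvage pathway and is often deleted together with CDKN2A. DMRTA1 encodes a DM-domain transcription factor. Loss of CDKN2A is common in melanoma, and germline mutation of it predisposes to the disease. CDKN2A and CDKN2B are transcribed on the minus strand and MTAP and DMRTA1 on the plus strand. The long noncoding RNA gene CDKN2B-AS1 is listed between them, next to the p14ARF start and overlapping CDKN2B, and peaks carry no strand, so its mark cannot be told apart from theirs.

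For the 4 start sites at which peak length changed, a RefSeq promoter is shown, the 250 bases before a RefSeq start in GRCh38.p14. Each reads 5′ to 3′ on the strand of the gene, with the GC box letters GGGCGG or CCGCCC in capitals. They lie at chr9:21974858-21975107 on the minus strand for p16INK4a, chr9:21995325-21995574 on the minus strand for p14ARF, chr9:22009306-22009555 on the minus strand for CDKN2B and chr9:22446574-22446823 on the plus strand for DMRTA1. These starts were not matched base by base to the GRCh37 start sites, so a window may not adjoin the start whose peaks were measured. For p14ARF the window begins at 21995325, and the GRCh37 start is 21994490. For p16INK4a the window ends at 21975107, and the GRCh37 start is 21975132.
CDKN2A p16INK4a: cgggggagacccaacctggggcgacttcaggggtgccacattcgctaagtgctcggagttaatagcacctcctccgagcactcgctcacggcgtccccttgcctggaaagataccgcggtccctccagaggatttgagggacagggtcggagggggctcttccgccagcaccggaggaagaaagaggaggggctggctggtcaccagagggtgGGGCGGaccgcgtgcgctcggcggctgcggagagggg
CDKN2A p14ARF: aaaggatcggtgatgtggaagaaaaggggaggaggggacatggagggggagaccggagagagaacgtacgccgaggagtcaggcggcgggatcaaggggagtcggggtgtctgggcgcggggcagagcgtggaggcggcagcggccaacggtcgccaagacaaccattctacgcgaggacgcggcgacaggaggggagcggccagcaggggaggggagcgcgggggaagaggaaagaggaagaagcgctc
CDKN2B: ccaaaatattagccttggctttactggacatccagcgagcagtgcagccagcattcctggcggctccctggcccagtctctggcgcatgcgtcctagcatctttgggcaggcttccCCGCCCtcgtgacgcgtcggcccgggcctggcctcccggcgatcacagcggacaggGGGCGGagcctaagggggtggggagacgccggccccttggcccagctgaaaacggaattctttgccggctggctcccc
DMRTA1: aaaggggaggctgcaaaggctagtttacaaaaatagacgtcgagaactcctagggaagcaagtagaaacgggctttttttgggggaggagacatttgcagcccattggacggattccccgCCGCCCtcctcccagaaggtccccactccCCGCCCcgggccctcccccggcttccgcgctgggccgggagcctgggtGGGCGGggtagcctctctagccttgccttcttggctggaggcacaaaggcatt

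The p14ARF, p16INK4a and CDKN2B promoters held more CpG dinucleotides than the median promoter, and those of DMRTA1 and MTAP lay near or at it. The count of CpG in 250 bases is 24 for p14ARF, 20 for p16INK4a, 18 for CDKN2B, 13 for DMRTA1 and 11 for MTAP, against a median of 11 over 35116 RefSeq promoters. GC boxes, counted on both strands, number 3 at DMRTA1, 2 at CDKN2B, 2 at MTAP and 1 at p16INK4a, and these letters are not in the p14ARF window. At least 1 GC box stands in 42.6% of all promoters of this length. The ETS core CGGAAG or its complement occurs once at p16INK4a and once at DMRTA1, and in 16.5% of promoters. The TATA box TATAAA occurs once at MTAP and in 10.7% of promoters. The E-box CACGTG and the AP-1 letters TGACTCA or TGAGTCA are in none of the 5 windows, and in 6.34% and 4.20% of promoters.

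All 5 start sites carried H3K4me3 peaks in their regions in all 10 libraries. The start base itself was under a peak in 10 libraries at MTAP and p16INK4a, 6 at p14ARF, 5 at DMRTA1 and 4 at CDKN2B. The drug-exposed groups differed from parental cells in how far the peaks extended. Resistant cells had a longer p16INK4a peak and a shorter DMRTA1 peak than parental cells. Colonies had shorter p14ARF and CDKN2B peaks, a longer DMRTA1 peak and no peak in the broad domain. In NRAS Q61K cells the broad domain was called wider than in GFP cells, but that call was lost when any 1 of the 4 libraries was left out, with adjusted p from 0.056 to 0.119 by limma. The measure is the number of bases under peaks in each region, tested as log2(bases + 200) with limma over 23153 regions that have a peak in at least 2 libraries. A positive change means wider in the first-named group, and a call means a Benjamini-Hochberg adjusted p under 0.05. The median offset of each library is removed before the test. Resistant libraries were offset by -0.20 log2 against parental libraries and by -0.22 against colonies. Removing this raises every change in resistant cells above what the printed lengths give. The window was proposed with earlier results of these data known, so its calls are not independent evidence.

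**Figure D1:**
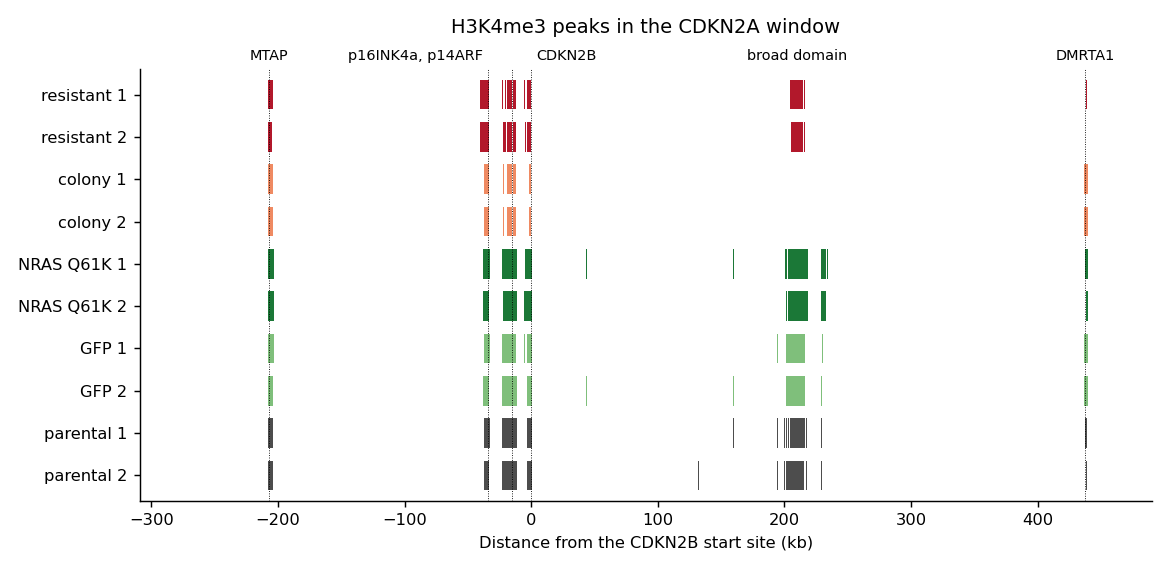
Peaks in the window by library, drawn as bars along the distance from the CDKN2B start site in kb. Dotted lines mark the start sites, and the 2 colony libraries have no bar between CDKN2B and DMRTA1.

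In colonies against parental cells, 12 window regions other than the domain were tested, of which 1 was wider and 5 were narrower. Over all regions 4.29% were wider and 16.7% narrower in that comparison. In resistant against parental cells, 1 of 13 window regions was wider and 5 were narrower, where 7.93% and 20.6% of all regions were. In resistant cells against colonies, 3 of 12 window regions other than the domain were wider and 1 was narrower, beside 11.0% and 11.5% of all regions. Only 5 of those 12 had peaks in these groups, and the rest, empty in both, could not be called. In NRAS Q61K against GFP cells, 2 of 13 window regions were wider and none narrower, beside 5.06% and 2.18% of all regions. In GFP against parental cells limma called none of the 13, with 2 at an unadjusted p under 0.05, beside 2.67% wider and 1.69% narrower over all regions. The window is small, and these counts are a description of it. The median log2 change over the tested window regions was -0.39 in colonies, beside -0.05 over all regions, and -0.18 in resistant cells, beside -0.07 over all regions. Window regions with no peak in either group compared enter these medians. Colonies and resistant cells share the parental libraries as controls.

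**Figure D2:**
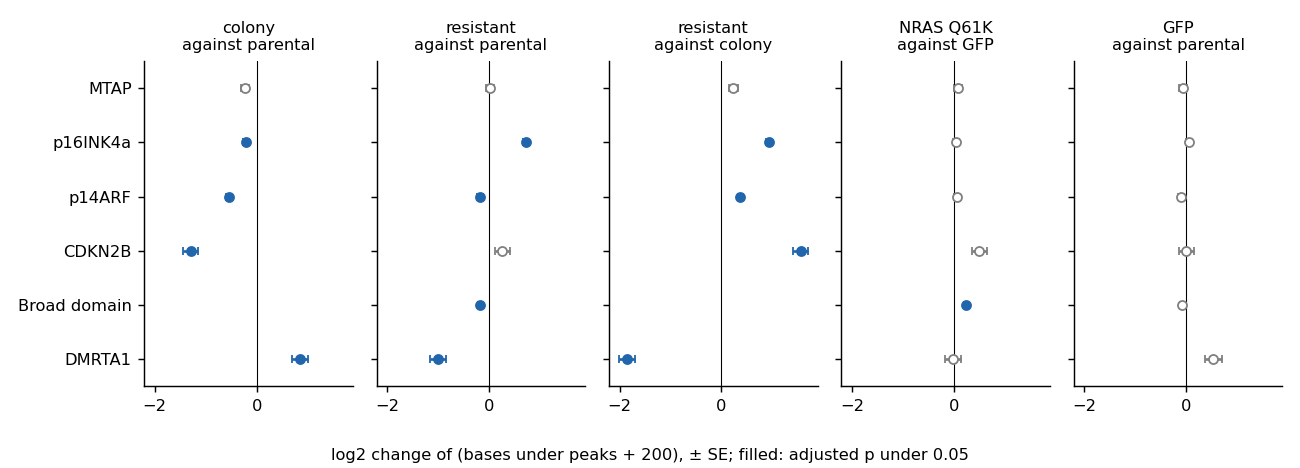
Log2 change of bases under peaks with its standard error (horizontal axis) for the named regions (rows) in the 5 comparisons (panels), each with 2 libraries per group. Filled points have an adjusted p under 0.05; the domain is not plotted where the comparison includes colonies, since it was chosen on them.

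The p16INK4a region, chr9:21969034-21977675, was longest in resistant cells. It had 6909 and 6657 bp under peaks in resistant cells, 3926 and 4247 bp in colonies, 5439 and 5068 bp in NRAS Q61K cells, 5083 and 5452 bp in GFP cells, and 4837 and 4490 bp in parental cells. Both resistant libraries lay above the other 8, and both colony libraries lay below them. In bulk chromatin, a larger share of cells with the mark and more of it per cell cannot be told apart. Resistant cells averaged 6783 ± 178 bp and parental cells 4664 ± 245 bp (SD, n = 2 each), a log2 change of 0.72 with a standard error of 0.05 and a limma adjusted p of 4.93e-05. Against colonies, at 4087 ± 227 bp, the change in resistant cells was 0.93 (SE 0.05, adjusted p = 1.3e-05 by limma). Without removal of the library offsets these changes were 0.52 against parental cells and 0.70 against colonies, both still called.

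The extra length in resistant cells lay on the gene side of the p16INK4a start. Their peaks reached 6098 and 6076 bp downstream of the start site, against 3368 and 3349 bp in parental cells. Colonies reached 2989 and 3017 bp, NRAS Q61K cells 3914 and 3781 bp and GFP cells 3712 and 3760 bp. The farthest reach outside the resistant pair was 3914 bp, in NRAS Q61K 1. A total of 1971 bp, between 21969056 and 21971217, lay under peaks in both resistant libraries and in none of the other 8. On the upstream side resistant peaks were the shortest of the 5 groups, ending 810 and 771 bp before the start, against 1637 and 1140 bp in parental cells. Colony peaks ended 936 and 1229 bp before it. Within its own list, the p16INK4a peak ranked 105th and 130th by width in the resistant libraries, 2293rd and 1858th in the colony libraries and 1556th and 945th in the parental libraries.

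The p16INK4a region was called narrower in colonies than in parental cells by a small margin, with a log2 change of -0.21 (SE 0.05, limma adjusted p = 0.0277). That call ended in 7 of 13 alternatives, with adjusted p up to 0.227, among them the fits without colony 1 (0.139), without parental 1 (0.0834) and without parental 2 (0.0894). No p16INK4a change was called in NRAS Q61K against GFP cells, which overlapped, or in GFP against parental cells.

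**Figure D3:**
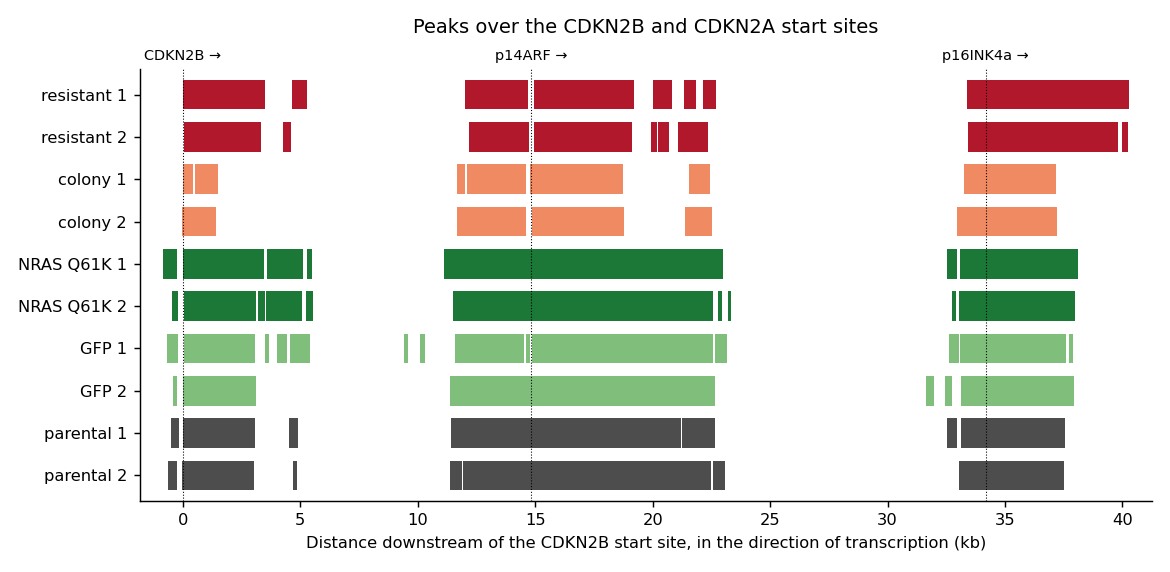
Peaks over CDKN2B and CDKN2A by library, as distance in kb downstream of the CDKN2B start in the direction of transcription, left to right. Resistant peaks extend beyond the others at p16INK4a, and colony and resistant libraries show a gap downstream of p14ARF.

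The p14ARF region, chr9:21985971-21999915, was shortened in both drug-exposed groups. It held 8852 and 8647 bp under peaks in resistant cells, 7695 and 8037 bp in colonies, 11866 and 11407 bp in NRAS Q61K cells, 11800 and 11295 bp in GFP cells, and 11197 and 11577 bp in parental cells. The 4 drug-exposed libraries lay below the other 6 without overlap, and the NRAS Q61K, GFP and parental libraries overlapped each other. Colonies averaged 7866 ± 242 bp and parental cells 11387 ± 269 bp (SD, n = 2 each), with a log2 change of -0.55 (SE 0.05, adjusted p = 0.000325 by limma). This call held in the 13 alternatives, with adjusted p up to 0.00976.

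In resistant cells the p14ARF change against parental cells was -0.18 (SE 0.05, limma adjusted p = 0.0428), from a mean of 8750 ± 145 bp in resistant cells (SD, n = 2). Over the 12087 regions covered in all 10 libraries, the median bases under peaks per region were offset by -0.20 log2 in resistant against parental libraries, and this change is what remains beyond that offset. The call ended in 5 of 13 alternatives, with adjusted p of 0.141 without resistant 1, 0.154 without resistant 2 and 0.124 without parental 2. Resistant cells exceeded colonies by 0.37 (SE 0.05, limma adjusted p = 0.00161), a call that ended with stricter peaks (adjusted p = 0.352). Without removal of the library offsets this change was 0.15 (adjusted p = 0.0327 by limma).

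At p14ARF both drug-exposed groups had gaps between peaks inside the stretch marked in parental cells. The furthest peak reached 7890 and 7516 bp downstream of the start in resistant cells and 7613 and 7708 bp in colonies, against 7832 and 8263 bp in parental cells. Over the whole region, upstream side included, 3061 bp lay under peaks in both parental libraries and in neither colony library. The longest such run covered 2426 bp, from 3945 to 6370 bp downstream of the start. Over the whole region 1700 bp lay under peaks in both parental libraries and in neither resistant library, and the longest run covered 718 bp, from 4379 to 5096 bp downstream. In parental, NRAS Q61K and GFP libraries the longest single peak here measured 7740 to 11866 bp, and in resistant and colony libraries 3912 to 4275 bp. The p14ARF start base itself was uncovered in both resistant libraries, in colony 2 and in GFP 1, where it fell in a gap between peaks.

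The CDKN2B region, chr9:22003755-22010160, was much shorter in colonies. It had 4146 and 3651 bp under peaks in resistant cells, 1411 and 1437 bp in colonies, 5811 and 5457 bp in NRAS Q61K cells, 4947 and 3313 bp in GFP cells, and 3783 and 3637 bp in parental cells. Both colony libraries lay below the other 8, and both NRAS Q61K libraries lay above them. Colonies averaged 1424 ± 18.4 bp and parental cells 3710 ± 103 bp (SD, n = 2 each), a log2 change of -1.29 (SE 0.15, adjusted p = 0.000634 by limma) that was called in the 13 alternatives. Resistant cells, at 3899 ± 350 bp, exceeded colonies by 1.56 (SE 0.15, adjusted p = 0.000154 by limma), also in the 13 alternatives. Without removal of the library offsets this change was 1.33. Resistant and parental libraries overlapped, and their difference of 0.26 (SE 0.15) was not called (adjusted p = 0.248 by limma). That difference includes the removal of an offset of -0.20 log2 in the resistant libraries.

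Colony peaks at CDKN2B stopped close to the start. They reached 1497 and 1404 bp downstream of it, against 4881 and 4850 bp in parental cells, while resistant peaks reached 5283 and 4615 bp. A run of 1518 bp, from 1498 to 3015 bp downstream, lay under peaks in both parental libraries and in neither colony library. On the upstream side peaks covered 2 and 0 bp in resistant cells and 0 and 32 bp in colonies, against 327 and 441 bp in parental cells. The parental bases lay mostly in a separate upstream peak, of 327 and 399 bp. The CDKN2B peak was also weaker in colonies: the summit pileup implied by the deposited fold and p-value was 32 and 31 reads in colonies, 51 and 60 in resistant cells and 76 and 62 in parental cells. Within their own lists the colony peaks stood at the top 57.2% by q-value in both libraries, against the top 24.7% and 21.9% in parental cells.

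In NRAS Q61K cells CDKN2B averaged 5634 ± 250 bp and in GFP cells 4130 ± 1155 bp (SD, n = 2 each). The difference of 0.50 (SE 0.15) missed the threshold (adjusted p = 0.0952 by limma). It passed in 3 of 13 alternatives: with stricter peaks (adjusted p = 0.000624), with lists of equal length (0.00256) and without GFP 1 (0.0121).

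The MTAP region, chr9:21801126-21806315, was not called in any of the 5 comparisons. It had 4083 and 3433 bp under peaks in resistant cells, 3520 and 3903 bp in colonies, 4781 and 4428 bp in NRAS Q61K cells, 4550 and 4415 bp in GFP cells, and 4254 and 4302 bp in parental cells. The 4 drug-exposed libraries lay below the other 6. Resistant cells averaged 3758 ± 460 bp and colonies 3712 ± 271 bp, against 4278 ± 33.9 bp in parental cells (SD, n = 2 each). The log2 change was -0.22 (SE 0.08, adjusted p = 0.0967 by limma) in colonies and 0.01 (SE 0.08, adjusted p = 0.899) in resistant cells. Resistant cells against colonies gave 0.24 (SE 0.08, adjusted p = 0.0763 by limma), and 0.34 without resistant 2. Both resistant values are after removal of the library offsets, and without that step the change against colonies was 0.01. The MTAP start base was under a peak in all 10 libraries.

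**Figure D4:**
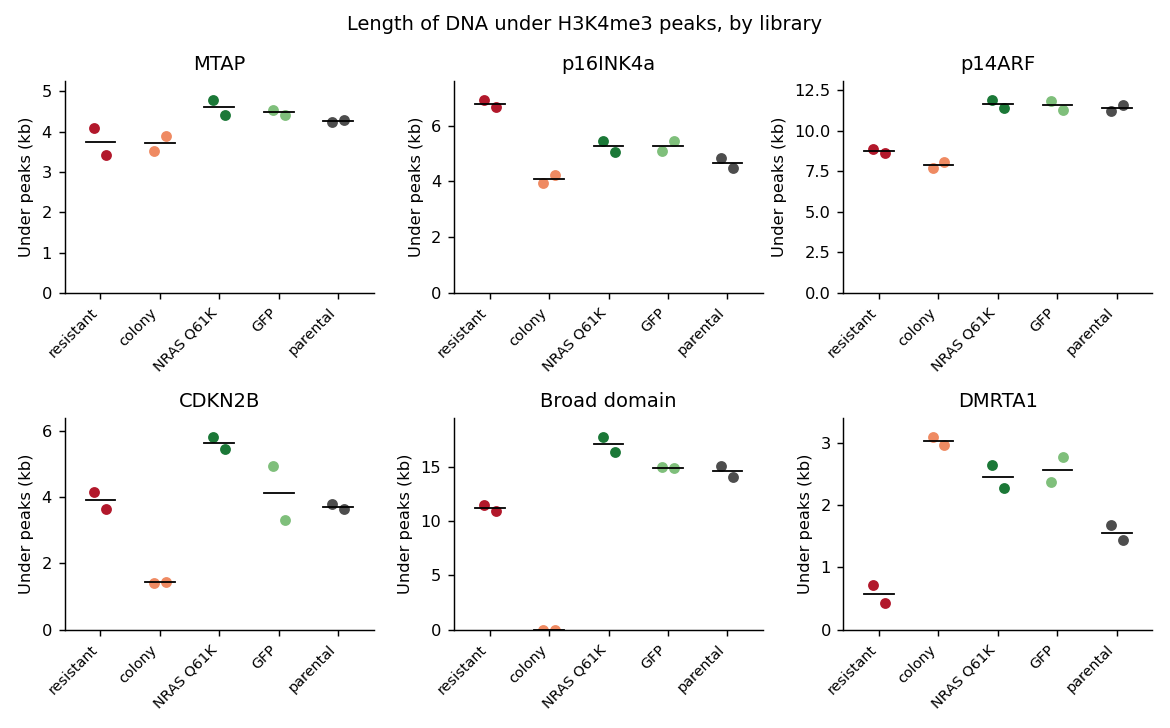
Bases under H3K4me3 peaks in kb (vertical axis, from 0) for each library (points) by group, with the mean of the 2 libraries as a line. Resistant points are highest at p16INK4a and lowest at DMRTA1, and colony points are lowest at CDKN2B and at 0 in the domain.

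The broad domain lies between CDKN2B and DMRTA1, and RefSeq lists only CDKN2B-AS1 and the pseudogene UBA52P6 between CDKN2B and DMRTA1, neither of which was placed on this build. It begins 199821 bp from the CDKN2B start and ends 217816 bp before that of DMRTA1. It held 11455 and 10970 bp under peaks in resistant cells, 0 and 0 bp in colonies, 17749 and 16394 bp in NRAS Q61K cells, 15027 and 14850 bp in GFP cells, and 15091 and 14093 bp in parental cells. The resistant libraries lay between the colonies and the other 6, and the NRAS Q61K libraries lay above the rest. In the 8 libraries that have it, the domain supplied 31.7% to 35.4% of all bases under peaks in the window. Its longest peak measured 10642 and 9764 bp in resistant cells, which is the 9th and 16th widest of their lists. In parental cells the longest peak measured 10135 and 9704 bp, the 38th and 31st widest. By mean length in parental cells the domain was the 19th longest of the 31428 regions.

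In colonies no peak lay anywhere between CDKN2B and DMRTA1, an empty stretch of 436945 bp in colony 1 and 436978 bp in colony 2. The implied pileup at the summit of the domain was 88 and 95 reads in resistant cells, 116 and 91 in NRAS Q61K cells, 95 and 92 in GFP cells and 105 and 82 in parental cells. At their commonest background, the weakest peaks called in the colony lists had 14 and 13 reads at the summit, so a lower signal could be present there without being listed. Regions that lack a colony peak and have one in all 8 other libraries number 251, with a median of 1089 bp. The domain, at a mean of 14454 bp over those 8 libraries, is the longest of them, and the next measured 7158 bp.

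Where the domain was present, its centre was shared and its edges differed. A total of 9771 bp lay under peaks in all 8 libraries, and the longest common run was 7318 bp, chr9:22214377-22221694. Another 1465 bp were under peaks in the parental, NRAS Q61K and GFP libraries and in neither resistant library, of which 1166 bp lay on the CDKN2B side of that run and 299 bp on the DMRTA1 side. Peaks were fewer in resistant cells, at 3 and 3, against 11 and 8 in parental cells. Resistant cells averaged 11213 ± 343 bp and parental cells 14592 ± 706 bp (SD, n = 2 each), a log2 change of -0.18 beyond the offset of the resistant libraries (SE 0.04, limma adjusted p = 0.0115). The call ended in 4 of 13 alternatives, among them the fit without resistant 2 (log2 change of -0.16). With stricter peaks the sign turned (0.054, adjusted p = 0.8 by limma) once the offset was removed. The mean bases under peaks stayed lower in resistant cells there, at 10431.5 bp against 11459.5 bp in parental cells.

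NRAS Q61K cells averaged 17072 ± 958 bp in the domain and GFP cells 14939 ± 125 bp (SD, n = 2 each), a log2 change of 0.24 (SE 0.04, adjusted p = 0.012 by limma). Both NRAS Q61K libraries lay above both GFP libraries. A total of 1470 bp were under peaks in both NRAS Q61K libraries and in neither GFP library, against 268 bp for the converse. The call ended in 8 of 13 alternatives, with adjusted p up to 0.343. It was lost without any 1 of the 4 libraries, at adjusted p of 0.119 without NRAS Q61K 1, 0.0962 without NRAS Q61K 2, 0.0613 without GFP 1 and 0.056 without GFP 2. GFP and parental libraries overlapped, and no change between them was called.

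**Figure D5:**
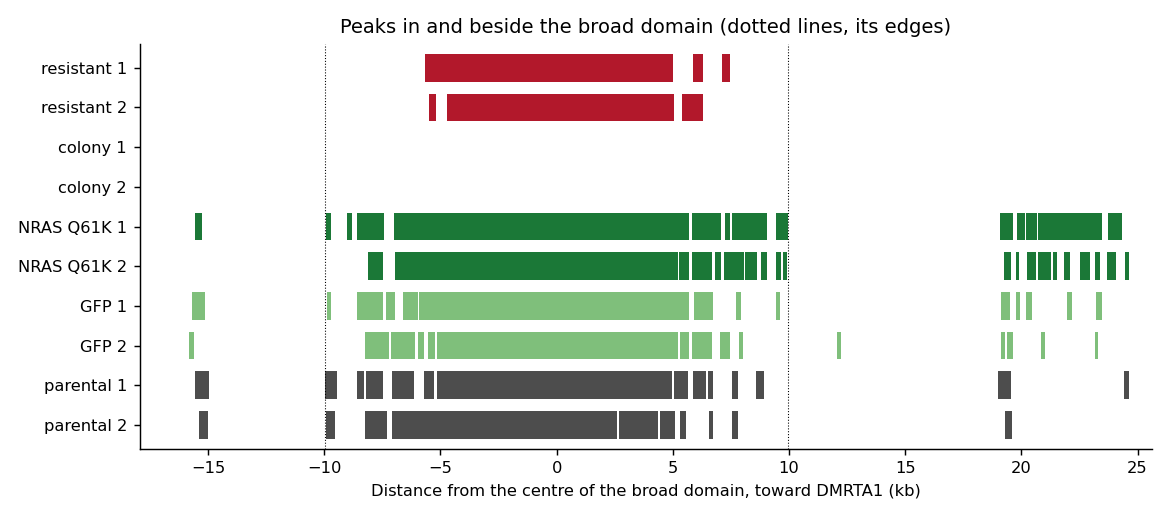
Peaks in and beside the broad domain by library, as distance in kb from its centre toward DMRTA1. The central peak is shared by the 8 libraries outside the colonies, and the group of peaks at the right is longest in NRAS Q61K cells.

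A satellite cluster on the DMRTA1 side of the domain, chr9:22238058-22243720, was chosen for description after its values were seen, as was the smaller region on the other side. It held no peak in the 4 drug-exposed libraries, 4702 and 3091 bp in NRAS Q61K cells, 1326 and 769 bp in GFP cells, and 808 and 286 bp in parental cells. The NRAS Q61K libraries lay above the rest. Their log2 change against GFP cells was 1.77 (SE 0.36, adjusted p = 0.0218 by limma), and the call ended in 7 of 12 alternatives, with adjusted p up to 0.487. Without NRAS Q61K 1 the adjusted p was 0.17, without NRAS Q61K 2 it was 0.101 and without GFP 2 it was 0.141. A smaller region on the CDKN2B side, chr9:22203242-22204114, likewise had no peak in the drug-exposed libraries, 267 and 0 bp in NRAS Q61K cells, 576 and 221 bp in GFP cells, and 587 and 399 bp in parental cells. Resistant cells were called narrower than parental cells at both regions (limma adjusted p = 0.0112 for the larger and 0.022 for the smaller). At the larger region the call ended in 6 of 12 alternatives, with adjusted p of 0.052 without resistant 1, 0.0509 without resistant 2 and 0.0537 without parental 1. At the smaller it ended in 4 of 11, the fits without any 1 of the 4 libraries, with adjusted p from 0.0594 without parental 2 to 0.105 without parental 1. With stricter peaks neither region was among those tested, and with lists of equal length the smaller was not. Those settings are left out of the alternatives counted here, and no call stands in them. With merging of overlapping peaks only, the larger region was represented by a piece with no peak in parental or drug-exposed libraries. That setting counts among those that ended its calls against parental cells, although it did not test the cluster as a whole. The 2 regions are also among the 5 narrower calls in colonies. There the call at the larger region ended in 2 of 12 alternatives, and that at the smaller in 3 of 11, at adjusted p of 0.0624 without colony 1, 0.0618 without colony 2 and 0.0869 without parental 1.

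The remaining 8 window regions held short peaks, at most 445 bp in any library, and none of them had a peak in a drug-exposed library. Of these, 3 were marked in 1 library. Between CDKN2B and DMRTA1 and outside the domain, peaks covered 0 bp in the 4 drug-exposed libraries, 6656 and 3242 bp in NRAS Q61K cells, 2091 and 1714 bp in GFP cells, and 1797 and 955 bp in parental cells. The lists of the NRAS Q61K and GFP libraries are the longest, and the shortest peak they list is 142 to 153 bp, against 255 to 284 bp in the drug-exposed libraries. With lists of equal length, the satellite cluster had a log2 change of -0.69 in colonies against parental cells (adjusted p = 0.766 by limma). In resistant against parental cells it was -0.48 (adjusted p = 0.795 by limma). In that setting 6 window regions other than the domain were tested in colonies against parental cells. The smaller region beside the domain was not among them. The part of peak-size limits in the absence of short peaks was not tested.

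DMRTA1, chr9:22446255-22449444, moved in opposite directions in the drug-exposed groups. It had 714 and 436 bp under peaks in resistant cells, 3092 and 2960 bp in colonies, 2638 and 2272 bp in NRAS Q61K cells, 2376 and 2764 bp in GFP cells, and 1676 and 1435 bp in parental cells. Both resistant libraries lay below the other 8, and both colony libraries lay above them. Resistant cells averaged 575 ± 197 bp and parental cells 1556 ± 170 bp (SD, n = 2 each), a log2 change of -1.0 (SE 0.16, adjusted p = 0.00249 by limma) that was called in the 13 alternatives. Colonies averaged 3026 ± 93.3 bp, a change of 0.86 against parental cells (SE 0.16, limma adjusted p = 0.00703) that was not called with stricter peaks (adjusted p = 0.140). Resistant cells against colonies gave -1.86 (SE 0.16, adjusted p = 0.000101 by limma), called in the 13 alternatives.

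The mark at DMRTA1 also differed in height and place. The implied summit pileup was 19 and 21 reads in resistant cells, 38 and 43 in colonies, 40 and 27 in NRAS Q61K cells, 32 and 33 in GFP cells and 30 and 26 in parental cells. The weakest peaks called in the resistant lists had 14 and 15 reads at the summit, so the resistant peaks stood close to that limit. Both colony libraries covered the DMRTA1 start base and neither resistant library did, with resistant 2 holding no peak within 1000 bp of it. In colonies, a total of 1095 bp were under peaks in both libraries and in neither parental library, the longest run lying 1740 to 2508 bp downstream of the start. GFP cells averaged 2570 ± 274 bp and exceeded parental cells without overlap, but the change of 0.53 (SE 0.16) was not called (adjusted p = 0.131 by limma) and turned sign with stricter peaks and with lists of equal length. Those values were -0.0984 and -0.0852.

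The differences in length were not matched at every start by differences in height. At p16INK4a the implied summit pileup was 82 and 73 reads in resistant cells, 55 and 60 in colonies and 81 and 60 in parental cells, so the resistant and parental libraries overlapped where their lengths did not. At p14ARF it was 57 and 74 reads in resistant cells, 67 and 64 in colonies, 98 and 94 in NRAS Q61K cells, 105 and 89 in GFP cells and 98 and 83 in parental cells. There the 4 drug-exposed libraries lay below the other 6. At MTAP it was 65 and 56 reads in resistant cells and 47 and 48 in colonies, against 75 and 57 in parental cells. Pileups are not scaled for depth, which the lists do not give, and are a description of each library.

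The window was set beside its surroundings by counting regions marked in parental cells and unmarked in a drug-exposed group. Of 8 window regions marked in both parental libraries, 3 were marked in neither colony library (37.5%), against 2 of 23 (8.70%) in the 5 Mb on each side and 15.6% of 16832 over the whole lists. In resistant cells 2 of the same 8 (25%) were unmarked, against 2 of 23 in the flanks and 22.0% over the whole lists. The choice of the window used the colony value of the domain, 1 of those 3, so these shares are a description with no test. The nearest marked region on the MTAP side, chr9:21556578-21560578, had a peak in all 10 libraries. On the far side of DMRTA1 the next region, chr9:23519879-23520098, was marked in GFP 2 only.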

How the data were processed

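H3K4me3 was profiled in WM164 cells, and the 10 deposited peak lists, 1 per library, were used. The 10 input samples were not analysed here. Tools named in the submitters' processing notes are MACS2 2.1.2, deepTools 2.5.4, BWA and SAMtools, and the named builds are hg19 and GRCh37, with no roles given. Groups came from the sample titles.

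The authors' deposited fold is a ratio of summit over background, and the deposited score and the deposited −log10 p and −log10 q values belong to the same peak. They were used to rank and describe peaks within a list. The lists give no depth. Summit pileups were solved from fold and p-value as a Poisson test with 1 added to both terms, and all window peaks gave whole numbers within 0.0005 in −log10 p.

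Positions were counted from 1. Peaks on other sequences (589) were left out. Bases under peaks per merged region were tested with limma 3.58.1 in R 4.3.3, as log2(bases + 200), after subtracting from each library its median over the 12087 regions with peaks in all 10, with 5 group means, a trended eBayes fit and Benjamini-Hochberg adjustment. The fit was tested on simulated data. Regions were described in full when near a member's start site, when they were the domain, or when marked in at least 8 libraries, and the others by counts and range, except that 2 regions beside the domain were chosen for description after their values were seen. The members, lists and tests were chosen with earlier results of these data known. The alternatives were stricter peaks (−log10 q of at least 10), equal list lengths, merging of overlapping peaks, pseudocounts of 50 and 1000 bp, no centring, no filter, separate fits, a replicate block and leaving out each library. No GRCh37 annotation was used here, so cell cycle genes outside the window and melanocyte markers were not placed. Promoter sequences and neighbour order are from RefSeq, GRCh38.p14. A promoter was found by gene symbol for all 5 starts, and the RefSeq starts were not matched to the GRCh37 positions. Python 3.11.15, numpy 2.4.6, pandas 2.3.3, scipy 1.17.1 and matplotlib 3.10.9 were used.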

Additional observations from a re-analysis of the deposited data

How the results depend on the processing

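Calls at p16INK4a, CDKN2B and DMRTA1 between resistant cells and colonies, at p16INK4a and DMRTA1 between resistant and parental cells, and at p14ARF and CDKN2B between colonies and parental cells held in the 13 alternatives each was run under. The calls that ended are named with their region above. The causes were not tested.

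Signs turned with stricter peaks for the domain in resistant against parental cells (0.054), where mean bases under peaks stayed lower in resistant cells. The sign also turned for DMRTA1 in GFP against parental cells, with stricter peaks (-0.0984) and with equal list lengths (-0.0852). With merging of overlapping peaks only, the satellite cluster gave 0.19 in resistant against parental cells. The piece of it tested there had no peak in either group, so this value is not a change of the cluster.

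Window regions called in colonies against parental cells numbered 6, with 2 under stricter peaks, 3 under equal lengths and 4 to 5 without 1 library. In resistant against parental cells they numbered 6, with 2 to 4 without 1 library. In resistant cells against colonies they numbered 4, with 4 to 5. In NRAS Q61K against GFP cells they numbered 2, with 1 under stricter peaks, 1 under equal lengths, 4 under merging of overlaps, 1 with 50 bp added, 0 without centring, 0 in a separate fit and 0 to 2 without 1 library. In GFP against parental cells they numbered 0, with 2 under merging of overlaps, 1 with 50 bp added, 1 without centring and 0 to 0 without 1 library.

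Over all regions, the calls in colonies against parental cells numbered 4865, with 2061 under stricter peaks, 2450 under equal lengths and 3602 to 4439 without 1 library. In resistant against parental cells they numbered 6615, with 3165 under stricter peaks, 3914 under equal lengths and 4064 to 5633 without 1 library. In resistant cells against colonies they numbered 5202, with 3236 under stricter peaks and 3795 to 4444 without 1 library. In NRAS Q61K against GFP cells they numbered 1675, with 660 under stricter peaks, 642 under equal lengths, 2837 under merging of overlaps, 132 in a separate fit and 119 to 1036 without 1 library. In GFP against parental cells they numbered 1010, with 419 under stricter peaks, 466 under equal lengths, 2216 under merging of overlaps, 638 with 1000 bp added, 566 without the filter, 14 in a separate fit and 344 to 730 without 1 library.

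After centring, libraries of the same number did not deviate together from their group means (correlations of -0.02 to 0.03). These correlations cannot show whether such libraries were prepared together. With the replicate number as a block, the counts of window calls stayed at 6, 6, 4, 2 and 0, and over all regions the count in GFP against parental cells was 608.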
